A study of Triticum dicoccoides with 12 samples.

Results

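The drought-susceptible wild emmer genotype A24-39 (S) was compared between terminal drought and good watering, with 3 arrays under each regime. These 6 arrays were chosen by the genotype in their titles and are 6 of the 12 in the series. The other 6 hold the drought-resistant genotype Y12-3 (R), 3 well-watered and 3 under terminal drought, and serve here only for comparison. All plants belonged to Triticum turgidum subsp. dicoccoides, were 10 weeks old, in reproductive growth, and grew in a mix of quartz sand and peat, per the labels. The tissue was labelled phyllome, the term for leaf-like organs. Each genotype is a single line. The labels are silent on whether replicates were different plants, and p-values here cover only the spread among the deposited samples, part of which may be technical. The labels give neither the soil water content nor the length of the stress.

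Wild emmer is the tetraploid progenitor of cultivated wheats. Terminal drought is a water shortage that sets in during the reproductive phase and is not relieved before maturity. In cereal leaves under such stress, stomata close and carbon fixation slows, the photosynthetic machinery is taken down as leaves senesce, and nitrogen and carbon are moved towards the grain, while protective proteins and compatible solutes build up. The comparison addresses how the leaf transcriptome of a susceptible plant responds to that condition.

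RNA was hybridised to an Affymetrix wheat array of 61290 probe sets. A signal is the MAS5 summary of 1 probe set on 1 array, on a linear scale that had been scaled to the same trimmed mean on all arrays. Median signals of the S arrays lay between 73.0 and 81.3. A signal of 129, the 95th percentile of 23 probe sets that target no wheat transcript, is called the control level, and 23603 to 24251 probe sets lay above it on each S array. The leaf markers the annotation names were bright in well-watered S: petC lay between 55728 and 66502, and FBP between 15541 and 16057. Markers of developing grain are not named in the annotation, so a share of other organs was not tested. In bulk tissue, fewer cells of a type and less RNA per cell cannot be told apart. Of the 61115 probe sets that are not controls or reporters, 969 tested ones carry a gene, nearly always as a bare locus number without a title, and such genes are named here without a role.

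Terminal drought changed a large share of the measured S transcriptome, in nearly equal parts up and down. Of 38398 probe sets tested, 10461 (27.2%) were called at a limma adjusted p under 0.05, 5165 higher (13.5%) and 5296 lower (13.8%). The 3 drought arrays lay wholly above or below the 3 well-watered arrays for 16810 probe sets (43.8%), 8250 above and 8560 below. Of the called probe sets, 10272 had such non-overlapping arrays and 189 did not. The median log2 change over all tested probe sets was −0.025, and the median SE of a change was 0.473. The even split depends on the scaling: 49.4% of calls were higher with the deposited scaling, 52.6% when arrays were scaled to the hybridization controls, and 69.0% when they were scaled to the poly-A controls, which moved the median change to 0.321.

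**Figure D1:**
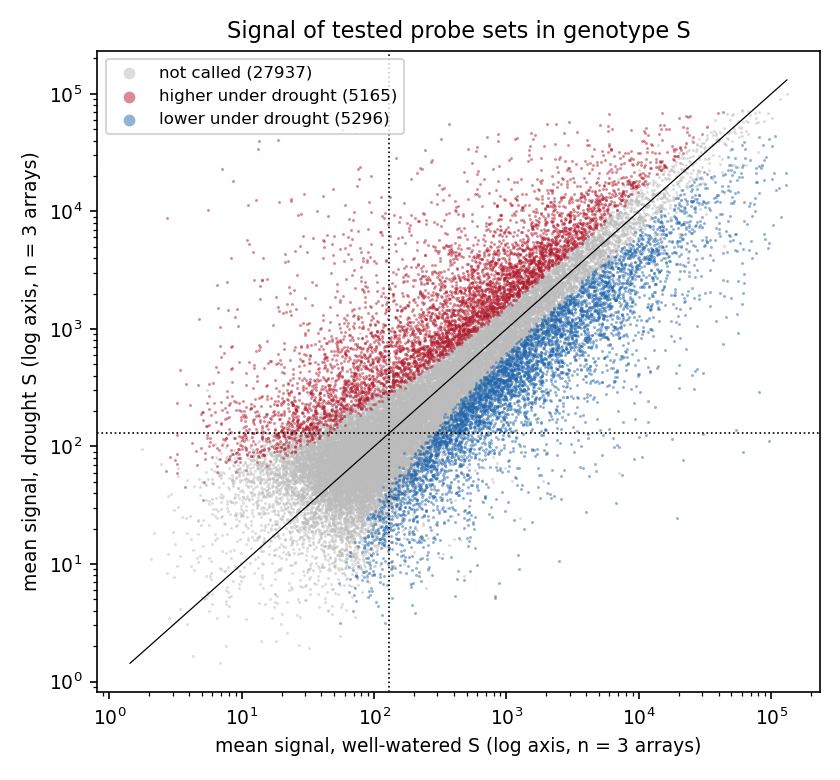
Mean signal of each of the 38398 tested probe sets in well-watered S (x) and in S under drought (y), both on log axes, n = 3 arrays each, with 5165 probe sets called higher in red, 5296 called lower in blue and the others in grey. Dotted lines mark the control level of 129 and the diagonal marks equal signal. Red points reach farthest from the diagonal at the left, and blue points grow dense at the right.

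By size, the rises reached farther than the falls. A change of at least 2-fold was seen for 4326 probe sets called higher and 4647 called lower. At 4-fold the numbers were 2064 and 1856, at 16-fold 334 and 189, and at 64-fold 93 and 24. Signals under the control level carry no reliable size, so the counts were repeated with all such signals set to 129. The 4-fold counts were then 1283 higher and 1217 lower, and the 64-fold counts 38 and 16. The excess of rises over falls thus remained among the largest changes and was small at 4-fold.

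In bins of the well-watered S signal, falls outnumbered rises at bright signals and rises outnumbered falls at dim ones. This tilt depends on which arrays set the bins, as the next paragraph shows. Signal also depends on how well the probes of a set bind, so the bins below rank probe sets and not transcript numbers. Among the 1424 tested probe sets with a well-watered S mean above 8000, 759 (53.3%) were lower under drought and 144 (10.1%) higher, with a median log2 change of −0.96. Between 2000 and 8000, 34.8% were lower and 17.7% higher. Between 500 and 2000 the shares were 23.6% and 18.8%, and between the control level and 500 they were 11% and 12.1%. Below the control level, 10.9% were higher and 1.27% lower. That last bin can hold probe sets that were tested only because they exceeded the array median under drought or in R. With no filter, 3.96% of it was higher and 0.58% lower.

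These bins use the same well-watered arrays as the changes do, so an array error in them would also place probe sets in bins. Bins drawn from well-watered R, arrays that enter no S change and only the shared estimate of its error, gave 48.6% lower and 12.2% higher above 8000, with a median of −0.80, and 2.85% lower and 9.84% higher below the control level. Bins drawn from R under drought gave the mirror image, as a level after drought: 57.0% of probe sets above 8000 were higher in S and 9.47% lower, with a median of 0.91. With bins from the mean of all 6 S arrays, which favours neither regime, 33.9% were lower and 29.7% higher above 8000. The tilt thus set transcripts bright in watered leaves against those bright in droughted leaves. Scaling to the poly-A controls left 32% of the probe sets above 8000 lower.

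**Figure D2:**
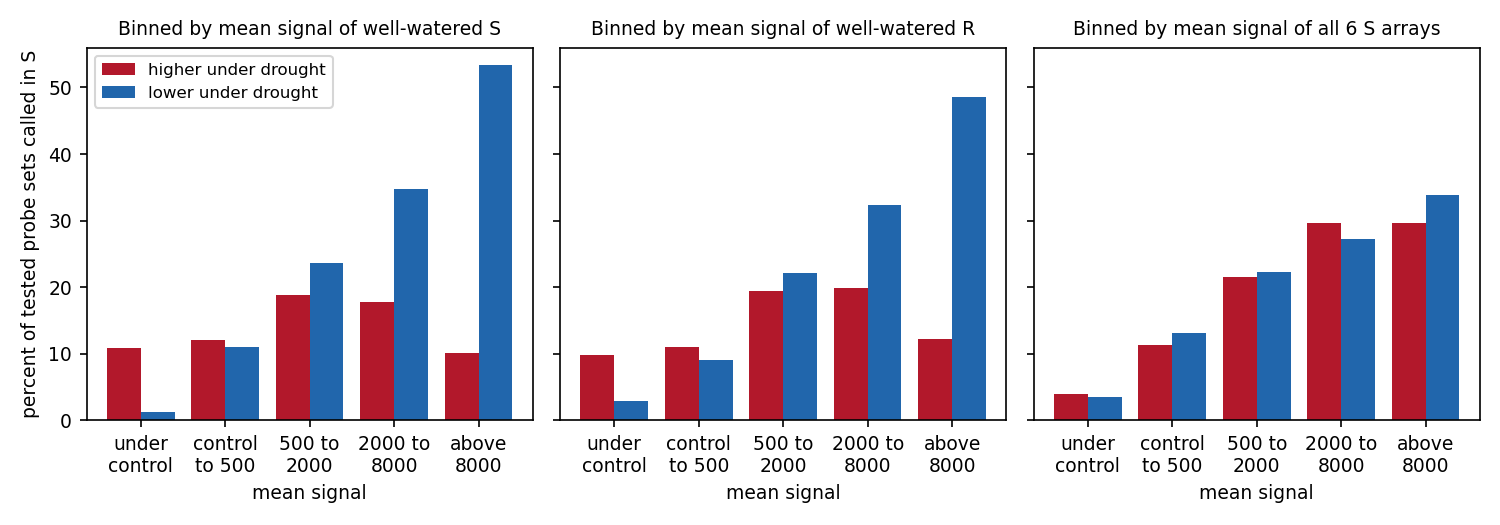
Percent of tested probe sets called higher (red) and lower (blue) under drought in S, by bins of mean signal taken from well-watered S (left), well-watered R (middle) and all 6 S arrays (right). Above 8000 the lower share is 53.3%, 48.6% and 33.9% in turn, and the higher share 10.1%, 12.2% and 29.7%.

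A smaller set of probe sets crossed the control level, most of them to or from a signal not far above it. Below the control level on all 3 well-watered S arrays and above it on all 3 drought arrays were 1036 probe sets, and 842 went the other way. On the side above the level, the median signal was 291 for these gains and 245 for the losses. Both medians lay under 350, the highest signal of the probe sets without a wheat target. With the level raised to 350 there were 996 gains and 1045 losses, so the balance between them depended on the level. The dim side gives only a bound, with a median of at least 2.13-fold for the gains and at least 1.82-fold for the losses. The bound reached 16-fold for 72 gains and 17 losses. In R the counts across the control level were 485 gains and 1515 losses. The genotypes shared 166 gains, which were 16% of those in S and 34.2% of those in R, and 287 losses, which were 34.1% and 18.9%. On well-watered R replicate 3, 33042 probe sets exceeded the control level, and on the other R arrays 21848 to 27343, and its part in the R counts was not tested. All crossing probe sets passed the filter through the group where they were bright, so the number called among them carries no information of its own.

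Among genes in the annotation, several of the largest rises on the log2(signal + 16) scale began below the control level and ended well above it. Here and among the largest falls, each gene is shown by its probe set with the largest change. Other called probe sets of such genes changed by less, for example by 2.38 for LOC543479, 5.11 for LOC542888, 5.23 for LOC542799 and −3.9 for LOC542984. LOC543479 measured 3.32, 2.79 and 2.05 in well-watered S and 17242, 5580 and 3628 under drought. That is at least 54.6-fold higher (means 2.72 and 8817, adjusted p = 1.4e-06). LOC542888 measured 5.66, 1.72 and 63.4 before and 17810, 5898 and 14794 under drought, at least 89.7-fold higher (means 23.6 and 12834, adjusted p = 1e-06). For both genes every watered array lay below the control level and every drought array far above it. LOC543150 likewise went from 26.6, 75.2 and 10.0 to 8960, 3313 and 17860, at least 62.7-fold higher (means 37.3 and 10044, adjusted p = 1e-06). LOC543201, LOC543476 and LOC543293 also had no watered array above the control level and were at least 27.2-fold, 27.3-fold and 11-fold higher (adjusted p = 2.6e-05, 3.2e-05 and 6.9e-05).

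Other genes with a large rise had a watered signal above the control level on at least 1 array. LOC542799 measured 592, 400 and 777 in well-watered S and 38248, 23044 and 36567 under drought, a log2 change of 5.77 ± 0.28 (SE, adjusted p = 1.9e-08). Its watered arrays all lay above the control level, and its drought arrays were similar to each other. LOC606323 rose from 262, 163 and 383 to 37420, 31750 and 9590 (6.38 ± 0.57, adjusted p = 3.1e-06), with drought replicate 3 well below the other two. LOC543197 was below the control level on 1 watered array (41.3, 195 and 718 before, and 41179, 28142 and 54624 under drought) and LOC100125738 on 2 (108, 93.2 and 460 before, and 27362, 12197 and 31293 under drought). With such signals set to the control level, their log2 changes were 7.14 ± 0.83 (adjusted p = 0.00039) and 6.67 ± 0.63 (adjusted p = 0.00015). In R, the same probe sets were also called higher for 9 of these 10 genes, with log2 changes of 4.94 to 8.23. That of LOC543479 was not (0.83 ± 0.70, adjusted p = 0.39).

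Several of the largest falls were in genes that were bright in watered leaves. LOC543355 measured 46188, 46106 and 36624 in well-watered S and 428, 875 and 925 under drought, a log2 change of −5.89 ± 0.71 (adjusted p = 3.8e-05). LOC543256 went from 59267, 62773 and 43622 to 515, 2043 and 1452 (−5.54 ± 0.66, adjusted p = 3.7e-05). LOC543496 went from 62020, 67768 and 57517 to 1306, 3827 and 2304 (−4.78 ± 0.64, adjusted p = 9.4e-05). In all 3 genes the groups were far apart, drought replicate 1 was the lowest array, and a signal above the control level remained. LOC542947 fell from 85803, 76279 and 67379 to 2349, 6192 and 4672 (−4.22 ± 0.51, adjusted p = 3.6e-05), and LOC542984 from 10295, 10288 and 7657 to 163, 197 and 152 (−5.65 ± 0.44, adjusted p = 1e-06).

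Other falls ended at lower signals, some of them under the control level. LOC542989 measured 4923, 12893 and 2414 in well-watered S and 42.4, 3.90 and 53.0 under drought, at least 41.5-fold lower (means 6743 and 33.1, adjusted p = 5.5e-06). Its watered arrays differed from each other by more than those of most genes named here, and its drought arrays were all below the control level. LOC543145 was at least 3.56-fold lower (means 474 and 7.31, adjusted p = 0.00022). The log2 changes of LOC542880, LOC543077 and LOC543258 were −4.8, −4.61 and −4.32, with adjusted p of 7.7e-06, 3.6e-05 and 7.9e-07. All 10 lowest genes were also called lower in R, by log2 changes of −1.39 to −6.33.

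**Figure D3:**
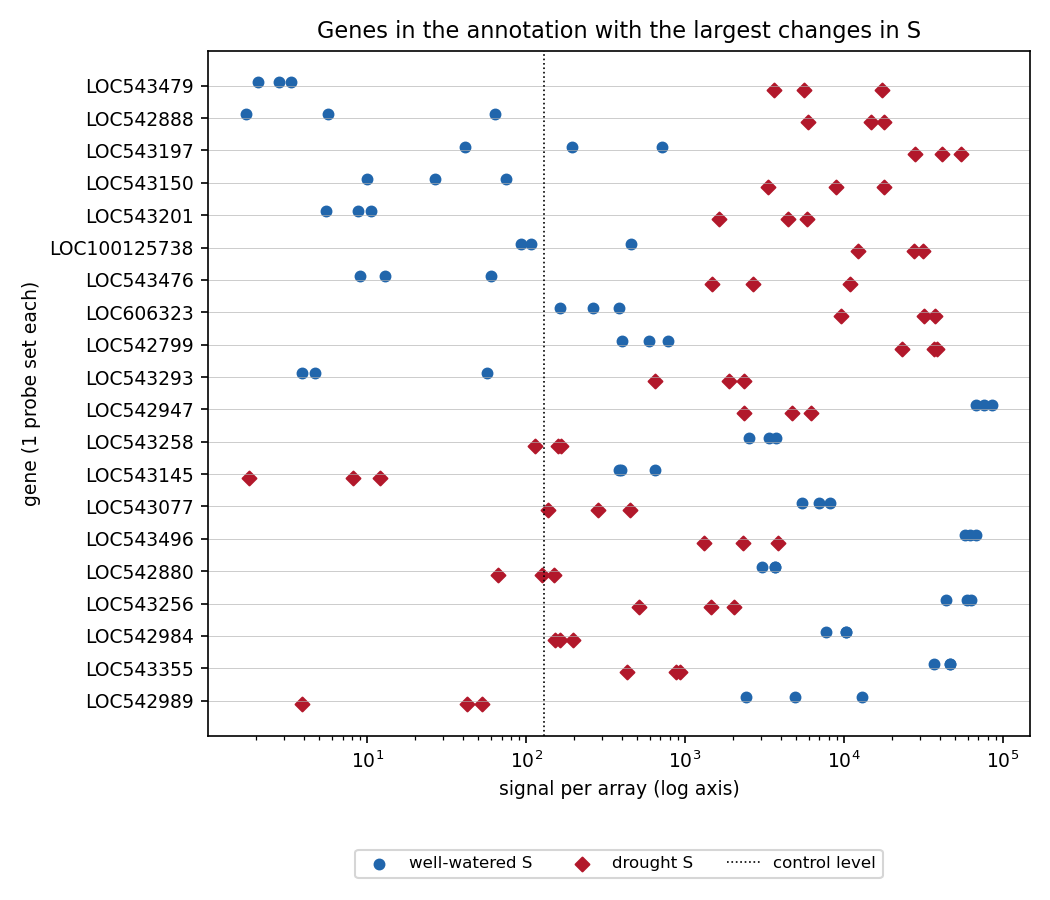
Signal on each S array (log axis) for the 10 genes in the annotation with the largest rises and the 10 with the largest falls, 1 probe set a gene, with well-watered arrays as blue circles and drought arrays as red diamonds. The dotted line is the control level of 129. The probe set shown is the one with the largest change. No gene's groups overlap, since non-overlap was part of the choice.

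Among all probe sets, the 2 highest and 2 lowest on that scale have no gene in the annotation. Ta.23989.1.A1_at rose from 11.4, 3.21 and 3.67 to 53926, 50507 and 59706, at least 423-fold (means 6.11 and 54713, adjusted p = 3.2e-10). Ta.13337.2.S1_at rose from 17.7, 7.42 and 15.2 to 38705, 34387 and 46845, at least 307-fold (means 13.4 and 39979, adjusted p = 1.5e-07). In both, the 3 drought arrays were close together, unlike those of most large rises above. Ta.22984.2.S1_x_at fell from 104790, 100960 and 81926 to 3.34, 11.3 and 318 (adjusted p = 3.8e-07). Ta.22984.1.S1_x_at, which shares its cluster number in the probe set name and whose suffix marks probes that can bind other sequences, fell from 90010, 83942 and 70678 to 75.9, 11.5 and 779 (adjusted p = 5.4e-06). With the dim drought signals set to the control level, the log2 changes of the pair were −8.96 ± 0.37 and −8.31 ± 0.56. Drought replicate 3 kept a signal above the control level in both, and the pair may measure overlapping sequences.

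Not all transcripts that were abundant in watered leaves fell. The annotation names 122 genes, on 157 probe sets, with a well-watered S mean above 8000. Of these probe sets, 75 (47.8%) were lower under drought, 14 (8.92%) higher and 68 not called, with a median log2 change of −0.61, against 53.3% lower, 10.1% higher and a median of −0.96 over all 1424 probe sets above 8000. LOC100037551 rose from 13002, 18048 and 13985 to 67995, 54446 and 83631 (2.19 ± 0.23, adjusted p = 1.1e-05), and LOC542962 from 12309, 11428 and 11270 to 46650, 37608 and 49731 (1.93 ± 0.22, adjusted p = 2.1e-05). On the log2 scale, LOC543434 rose by 1.84, LOC778398 by 1.70 and LOC542961 by 1.67, with adjusted p of 0.00016, 3.7e-05 and 0.00017. All 5 had drought arrays wholly above the watered ones. At the other end, LOC543200 measured 48333, 52805 and 40090 in well-watered S and 41366, 47586 and 49120 under drought (−0.03 ± 0.19, adjusted p = 0.94). LOC542871, LOC542991, LOC778422 and LOC543372 also had overlapping groups, with log2 changes of 0.00, −0.02, 0.04 and 0.05 (SE 0.20 to 0.26, adjusted p = 0.89 to 0.99). Under quantile normalization LOC543372 was called higher (0.46, adjusted p = 0.044).

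Genes with a known product can be named for photosynthesis, the methyl cycle, antioxidant defence and the cytoskeleton. Of 18 photosynthesis and Calvin cycle genes listed, 3 were in the annotation, and 3 of their 4 tested probe sets were lower and none higher, against 13.8% lower over all probe sets. Those 3, from FBP, GAPN and petC, had well-watered S means above 8000, where 53.3% of all tested probe sets were lower. The share of these genes thus cannot be set apart from that of bright probe sets in general. One of the 3, GAPN, acts outside the Calvin cycle. FBP, fructose-1,6-bisphosphatase, which acts in the Calvin cycle and sucrose synthesis, measured 15541, 16057 and 15589 in well-watered S and 1193, 1904 and 1659 under drought (−3.32 ± 0.45, adjusted p = 0.00011). GAPN, a cytosolic enzyme that oxidises glyceraldehyde-3-phosphate and yields NADPH, measured 11043, 12915 and 10967 and then 1391, 2055 and 1399 (−2.86 ± 0.49, adjusted p = 0.00065). For both genes the arrays of a group were close together and the groups far apart. petC, the Rieske subunit of the cytochrome b6f complex, which passes electrons between the photosystems, measured 66381, 66502 and 55728 and then 22966, 33496 and 28871 (−1.16 ± 0.29, adjusted p = 0.0079). The call for petC was lost under quantile normalization (−0.83, adjusted p = 0.077). It was also lost when arrays were scaled to the hybridization controls (−1.11, adjusted p = 0.095) or the poly-A controls (−0.76, adjusted p = 0.27). A second FBP probe set lay below the control level on all S arrays and was not called (−0.01 ± 0.62, adjusted p = 1), and a second petC probe set was below it throughout and was not tested.

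SAHH, S-adenosylhomocysteine hydrolase, which clears the by-product of methyl transfer, was lower by both of its probe sets. One measured 54165, 38569 and 48774 in well-watered S and 17781, 27891 and 22395 under drought (−1.07 ± 0.25, adjusted p = 0.0055). The other changed by −1.0 ± 0.31 (adjusted p = 0.027), and its call was lost without well-watered replicate 1 or 3 or drought replicate 1 or 3 (adjusted p = 0.061 to 0.12), under quantile normalization (0.061), eBayes without a trend (0.068) and the floor at the control level (0.063). CAT1, a catalase that breaks down the hydrogen peroxide of photorespiration, measured 65969, 62039 and 62398 and then 32834, 40809 and 29067 (−0.90 ± 0.22, adjusted p = 0.0067). Under quantile normalization the change was −0.56 and the call was lost (adjusted p = 0.15). A second CAT1 probe set overlapped between groups (−0.25 ± 0.51, adjusted p = 0.78). TUBA, alpha-tubulin of the microtubules, measured 10431, 14286 and 11949 and then 6773, 9276 and 5896 (−0.75 ± 0.24, adjusted p = 0.032), and its call was lost without well-watered replicate 2 or 3 or drought replicate 1 or 3 (adjusted p = 0.068 to 0.13), after median scaling (0.073) or quantile normalization (0.057) and with eBayes without a trend (0.083). Scaling to the hybridization or the poly-A controls ended the calls of SAHH, CAT1 and TUBA (adjusted p = 0.11 to 0.63). With the hybridization controls the changes themselves were close to those above, at −1.02 and −0.96 for SAHH, −0.86 for CAT1 and −0.71 for TUBA. With the poly-A controls they were smaller, at −0.67, −0.6, −0.51 and −0.36 in turn.

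Not called were TBP1, the TATA-box binding protein of the general transcription machinery (2140, 1682 and 1650 before and 2379, 1839 and 1898 under drought, adjusted p = 0.69), and XTH, a xyloglucan endotransglucosylase of the cell wall (33.8, 40.7 and 185 before and 274, 111 and 132 under drought, adjusted p = 0.24). COR410, a dehydrin that protects membranes during dehydration, lay between 4.37 and 80.0 on the S arrays, under the control level on all of them. The glycolytic PFK, the thionin genes THI1.1 and THI1.2, TTHV and a second TUBA probe set were under it too, and none of these was tested.

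The array also carries control probe sets for wheat transcripts, along the length of a few genes. Sucrose synthase, which splits sucrose for use in sink tissues, rose at all 3 positions. Its 3′ probe set measured 3875, 2578 and 5277 in well-watered S and 20598, 13117 and 17312 under drought (2.15 ± 0.29, adjusted p = 8.4e-05). The middle and 5′ probe sets rose by 2.34 ± 0.35 and 2.31 ± 0.42 (adjusted p = 0.0002 and 0.001), so the change was alike along the transcript. Ubiquitin, the tag that marks proteins for breakdown, changed by −0.15 ± 0.19, −0.32 ± 0.20 and −0.02 ± 0.20 at its 3′, middle and 5′ probe sets, and none was called (adjusted p = 0.61, 0.27 and 0.96). Glucose-6-phosphate dehydrogenase, which feeds the oxidative pentose phosphate pathway, was not called at any position (−0.41 ± 0.24, −0.42 ± 0.30 and −0.57 ± 0.37, adjusted p = 0.23 to 0.35). Control probe sets for actin, elongation factor 1-alpha, GAPDH, CYP86 and 18S rRNA had S signals between 2.19 and 339, near the control level or under it, and none was called. The closest were actin 3′ (−1.06 ± 0.38, adjusted p = 0.055, and 0.031 to 0.042 without R well-watered replicate 1 or 3, with array weights, with a filter on the mean or without a trend) and GAPDH 3′ (1.46 ± 0.54, adjusted p = 0.059, and 0.034 to 0.05 without S well-watered replicate 1, with array weights, after median scaling or without a trend). The 18S rRNA probe set was called higher under poly-A control scaling (2.11, adjusted p = 0.044).

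**Figure D4:**
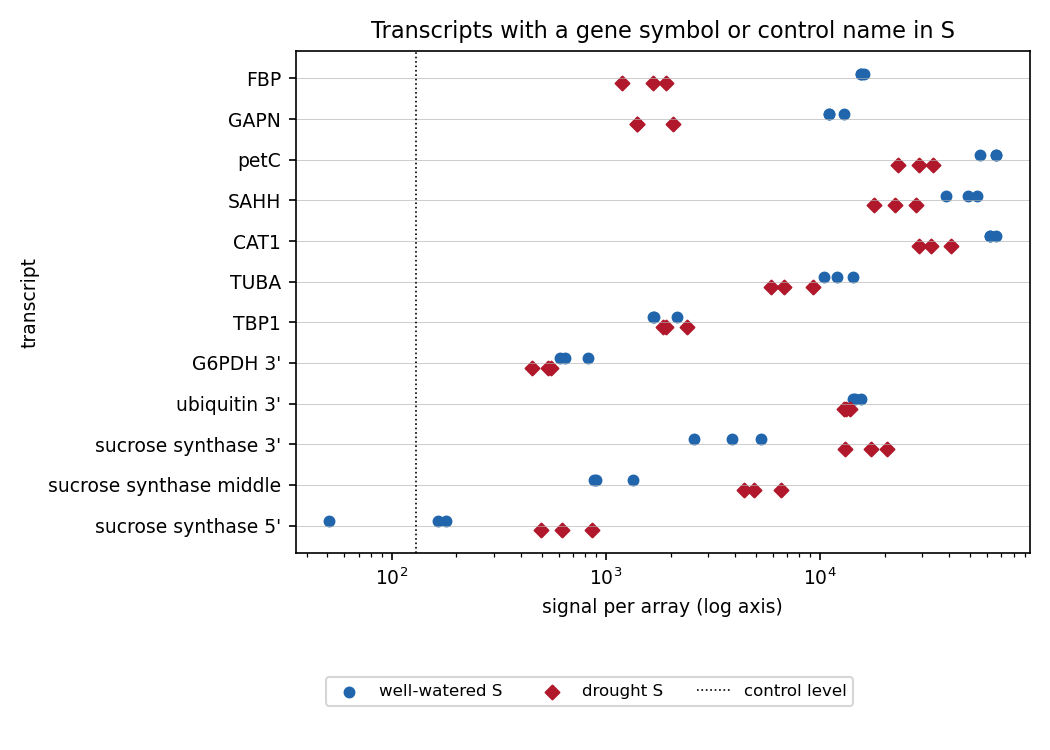
Signal on each S array (log axis) for 7 genes with a symbol and for control transcripts, with well-watered arrays as blue circles, drought arrays as red diamonds and the control level of 129 dotted. FBP and GAPN fell farthest among the genes with a symbol, sucrose synthase rose at all 3 positions, and the ubiquitin and TBP1 points lie close together.

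Where a gene had several probe sets, they mostly moved the same way. Of 67 genes with at least 2 called probe sets, 28 had all of them higher, 37 all lower and 2 were mixed. The genes named in this paragraph were picked after their values were seen, for their number of called probe sets. LOC606340 was lower on 6 of its 7 probe sets, and one of them fell from 14542, 11130 and 13097 to 2061, 4114 and 2750 (−2.16 ± 0.25, adjusted p = 2.4e-05). Its count was 3 of 7 without well-watered replicate 1, without drought replicate 3 or with scaling to the poly-A controls. LOC606332 was lower on 5 of 7, and on 2 with that scaling. LOC543297 was higher on 3, one of them from 5162, 5899 and 6602 to 31172, 23370 and 41456 (2.41 ± 0.24, adjusted p = 7.9e-06). Another of the 3 was dim, at 3.67, 35.2 and 8.73 and then 90.5, 65.8 and 134. Its call was lost with the floor at the control level (adjusted p = 0.49), hybridization control scaling (0.053) or a replicate block (0.061). The same call was lost without well-watered replicate 1 or 3 or drought replicate 1 or 3 (0.074 to 0.11). LOC100049018 was mixed: 1 probe set rose from 562, 1280 and 1104 to 6050, 3492 and 3807 (2.20 ± 0.44, adjusted p = 0.0018) and 3 were called lower (adjusted p = 0.0098, 0.032 and 0.045). None of the 3 was called lower without well-watered replicate 2 (adjusted p = 0.052, 0.073 and 0.13). Of these 3 calls, 1 was left without well-watered replicate 1, drought replicate 1 or drought replicate 3, and with scaling to the poly-A controls, while 2 further probe sets were called lower without well-watered replicate 3. Most tested probe sets of LOC100049018 were not called. Among them were its 2 brightest, with well-watered S means of 131447 and 116402 (−0.38 ± 0.25 and −0.38 ± 0.24, adjusted p = 0.3 and 0.27). Probe sets of a gene can share sequence, so they are not separate measurements.

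The drought arrays differed in how far they had moved, and drought replicate 2 had moved least. A score was made from the R response, as the mean log2 signal of the 5216 probe sets higher in droughted R minus that of the 7608 lower in droughted R. The S arrays entered these lists only through the filter and the shared estimate of error. The score was −0.71, −0.71 and −0.52 in well-watered S and 2.69, 1.55 and 2.40 in S under drought. The groups did not overlap, which with 3 against 3 arrays gives an exact permutation p of 0.1 at the smallest. Probe sets lower in R held 51.1%, 51.3% and 48.3% of the summed signal in well-watered S and 15.4%, 24.7% and 18.0% under drought, with replicate 2 again nearest to the watered state. Replicate 2 was the lowest drought array for 68.3% of the probe sets called higher and the highest for 68.4% of those called lower. Across probe sets, which are no independent replicates, its correlation with the watered S arrays was 0.821 to 0.854, against 0.743 to 0.800 for the other two. Without it, 5032 probe sets were called higher and 5839 lower, and 55.0% of those above 8000 were lower.

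The S response could be told apart from that of R for few probe sets. R had 12824 called probe sets (33.4%), and the difference between the genotypes' responses was called for 57 (0.148%), while 4955 had an unadjusted p under 0.05. Of the 57, 28 changed more positively in S and 29 in R. There were 19 called in S and not in R, 19 called in R and not in S, 9 called in opposite directions and 10 called in the same direction with different size. The count rests on single arrays: it was 17 without S drought replicate 3, 22 without R drought replicate 2, 25 without R well-watered replicate 1 or S well-watered replicate 2, 28 without S well-watered replicate 1, 34 without R well-watered replicate 3, 36 without R drought replicate 1 and 104 without R well-watered replicate 2.

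LOC543479, described above for its rise in S, measured 8.97, 8.50 and 53.2 in well-watered R and 7.50, 52.0 and 134 in R under drought. The difference between the responses was called (adjusted p = 0.0063), but its fitted size of 7.73 ± 0.99 on the log2 scale rests on signals under the control level. With these set to the control level it was 5.59 ± 0.65 (adjusted p = 0.0047). These values come from 1 probe set. A second probe set of LOC543479 was called higher in S by a log2 change of 2.38, and its difference between the responses was not called. Ta.14946.1.S1_at rose in S from 723, 1516 and 2328 to 30720, 51512 and 57885, while R measured 38060, 21429 and 34065 watered and 15482, 23744 and 21212 under drought (difference 5.64 ± 0.53, adjusted p = 0.00052). R was bright under both regimes, and S was far brighter under drought than when watered. Ta.13396.1.S1_at rose in S from 20.9, 2.50 and 2.18 to 21873, 12324 and 20191, at least 136-fold (means 8.52 and 18129), and in R from 40.0, 11.1 and 78.2 to 1192, 460 and 448. Its difference of 5.95 ± 0.71 (adjusted p = 0.0038) was 4.77 ± 0.50 (adjusted p = 0.0026) with the watered signals, all under the control level, set to it. Of those 4 extreme probe sets, Ta.23989.1.A1_at was called as well (difference 3.73 ± 0.52, adjusted p = 0.013), and this call ended with the same floor (1.41 ± 0.36, adjusted p = 0.11).

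A pair of probe sets of 1 cluster moved in opposite directions in the genotypes. Ta.28675.1.A1_at measured 12461, 13161 and 9885 in well-watered S and 1853, 1984 and 1654 under drought. In R it measured 5515, 8234 and 7880 and then 47033, 32094 and 24044 (difference −4.89 ± 0.35, adjusted p = 2.4e-05). Ta.28675.1.A1_s_at differed by −5.05 ± 0.36 (adjusted p = 2.4e-05), with groups that did not overlap in either genotype, lower under drought in S and higher in R. LOC543258 changed by −4.32 in S and by −1.39 in R on the log2 scale (difference −2.93 ± 0.46, adjusted p = 0.025). Another probe set of LOC543338 was called higher in S by 3.73, and its difference was not called. The one called in the interaction rose by 3.34 in S and by 6.59 in R (difference −3.25 ± 0.56, adjusted p = 0.037). It was below the control level on all watered R arrays, at 14.3, 49.6 and 67.9. With these set to that level the difference was −1.85 ± 0.46 and not called (adjusted p = 0.11). LOC543440 was not called in S, at 1529, 1166 and 1567 and then 1847, 463 and 1024, and rose by 3.47 in R (difference −4.01 ± 0.65, adjusted p = 0.027). It too was below the control level on all watered R arrays, and with that floor the difference was −2.92 ± 0.57 (adjusted p = 0.048). The differences of LOC543258, LOC543338 and LOC543440 were no longer called when single arrays were left out, 5, 8 and 8 of the 12 in turn, among them S well-watered replicates 1 and 2, S drought replicate 3, R drought replicate 2 and R well-watered replicate 1 for each gene (adjusted p = 0.052 to 0.11 over these arrays).

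**Figure D5:**
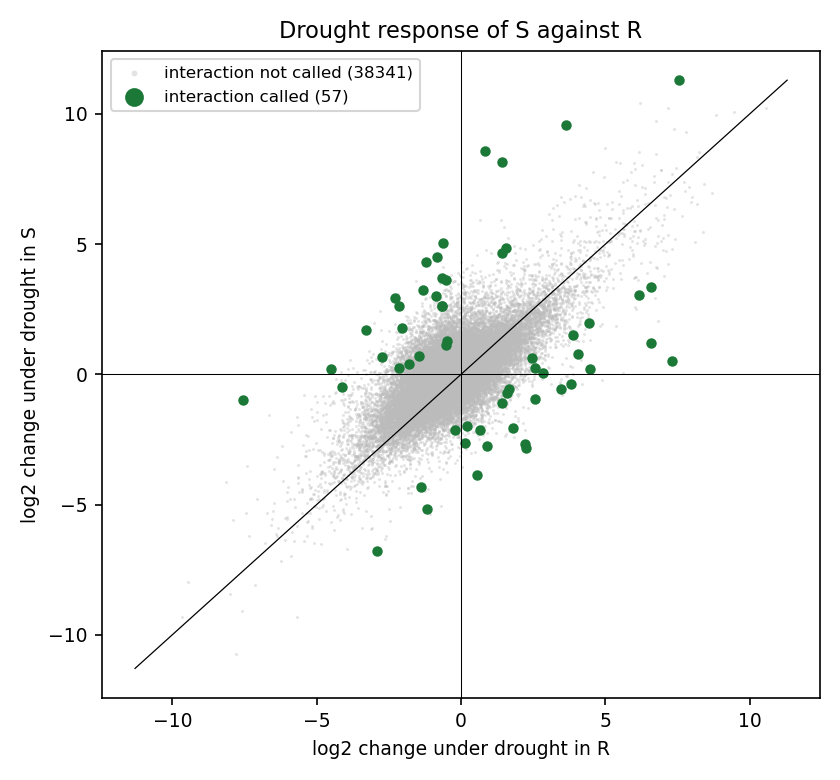
Log2 change under drought in R (x) and in S (y) for the 38398 tested probe sets, with the 57 called in the interaction in green and the others in grey. The diagonal marks equal change. Green points lie on both sides of it, 28 above and 29 below.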

How the data were processed

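The deposited table holds 1 signal intensity per probe set and array on a linear scale, which the authors made with MAS5 according to the submitters' processing notes, with no version or scaling target stated there. The mean without the top and bottom 2% of probe sets was 500.1 to 500.2 on every array. Groups and replicate numbers come from the sample titles. The sources used here name no batch or scan date.

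Values were taken as log2(intensity + 16), which understates changes of dim probe sets. The 111 AFFX and 64 RPTR probe sets were left out. Tested were the 38398 of the other 61115 (62.8%) that exceeded the array median on 3 or more of the 12 arrays. limma 3.58.1 in R 4.3.3 fitted 4 group means to all 12 arrays (8 residual degrees of freedom, eBayes with a trend), with Benjamini-Hochberg adjustment over all tested probe sets, called at 0.05. The 25 control probe sets for wheat transcripts were tested in a second fit with the others. The number of arrays limits the precision. The fit was tested on simulated data.

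A signal under 129, the 95th percentile of 276 values of 23 probe sets without a wheat target, is below the control level. Where all arrays of a group were below it, "at least N-fold" comes from log2 signals with dim arrays set to the higher of their own signal and 129. The highest such value was 350.

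Genes come from the platform annotation of 2007. It pairs 1273 probe sets with 771 genes, of which 13 have a symbol. The genes named were all with a symbol, the 10 highest and 10 lowest called with non-overlapping arrays, the 2 highest and 2 lowest probe sets, the 5 most changed each way and 5 least changed above 8000, those called in the interaction, the wheat controls and 11 gene lists. Each of the 10 highest and 10 lowest genes was taken by its probe set with the largest change. Of the lists, 8 matched a gene. PFK was the match for sugar metabolism, COR410 for dehydrins, TUBA and XTH for the cell wall and cytoskeleton, THI1.1, THI1.2 and TTHV for defence and TBP1 for transcription factors. Grain storage, histone and heat shock lists matched none. Members and lists were chosen with earlier results of these data known. No sequences were used here.

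Alternatives were pseudocounts of 1 and 64, other scalings and filters, a floor at the control level, other eBayes settings, array weights, the S arrays alone, a replicate block and each array left out. For poly-A scaling, trp was left out because it lay at the level of noise, which departs from the plan. Figures were drawn with matplotlib 3.10.9.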

Additional observations from a re-analysis of the deposited data

Results flagged for a closer look

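The difference between the S and R responses was called for 57 probe sets by the interaction test in limma. Among those named, the S change minus the R change on the log2 scale was 7.73 for LOC543479, 5.64 for Ta.14946.1.S1_at, 5.95 for Ta.13396.1.S1_at, −5.05 for Ta.28675.1.A1_s_at and −4.89 for Ta.28675.1.A1_at. These 5 differences were called under all 25 alternatives run for them, with adjusted p between 3.6e-06 and 0.031. The sizes for LOC543479 and Ta.13396.1.S1_at rest on watered signals under the control level in both genotypes, and with these set to it they were 5.59 and 4.77. The differences of −2.93 for LOC543258, −4.01 for LOC543440 and −3.25 for LOC543338 kept their sign under all 25 and were no longer called under 8, 10 and 13 of them. With the same floor these differences were −3.53, −2.92 and −1.85. LOC543479 and LOC543338 each had another probe set called in S whose difference was not called.

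Outside the tests, 2 of the 64 reporter probe sets of the array lay above the control level on all 6 S arrays. The mean signal of these 2 was 94954 in well-watered S and 87289 under drought.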

How the results depend on the processing

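Over the alternatives run, between 3460 and 6180 probe sets were called higher in S and between 2249 and 6783 lower. With each array left out in turn the counts ran from 3594 to 5315 higher and from 3616 to 5839 lower. Scaling to the hybridization controls gave 3124 lower calls and scaling to the poly-A controls 2249. Setting signals under the control level to it gave 1283 higher and 1217 lower calls of at least 4-fold. The interaction count was 149 after median scaling, and 17 to 104 with single arrays left out. The cause of these shifts was not tested. Raising the control level to 350 gave 996 gains and 1045 losses, and raising it to 258 gave 975 and 1010.

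Same-numbered samples did not deviate together (correlations of 0.002, −0.011 and 0.007 in S and −0.041, −0.126 and −0.12 in R), so no pairing by number was visible. This check cannot exclude that same-numbered samples were grown or processed together. With the replicate number as a block, 4463 probe sets were called higher, 4643 lower and 30 in the interaction.

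The shares by starting level moved with the arrays that set the bins and with scaling to spiked controls. Bins from droughted R, the no-filter and scaling settings for these shares, and the floor for sizes were chosen after seeing the data. Below the control level, the higher share was 3.99% with bins from all 6 S arrays, 3.31% with bins from droughted R and 3.96% with no filter. The lower share there was 2.85% with bins from well-watered R, 3.43% from all 6 S arrays, 9.66% from droughted R, 0.58% with no filter, 0.524% with hybridization control scaling and 0.177% after poly-A control scaling. From the control level to 500 the lower share was 16.9% from droughted R, 6.36% with hybridization control scaling and 3.6% after poly-A control scaling. From 500 to 2000 hybridization control scaling gave 10.0% higher and 12.9% lower, and poly-A control scaling 9.03% lower. From 2000 to 8000 the higher share was 29.7% from all 6 S arrays, 37.7% from droughted R and 7.98% with hybridization control scaling. The lower share there was 14.9% from droughted R, 21.4% with hybridization control scaling and 17.5% after poly-A control scaling. Above 8000 the higher share was 29.7% from all 6 S arrays, 57.0% from droughted R and 2.95% with hybridization control scaling. The lower share was 33.9%, 9.47% and, with poly-A control scaling, 32%. No called change or difference of a named gene turned its sign under any alternative run. Signals under the control level limit every size to a bound, and 28606 probe sets were below it on all 6 S arrays.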

Other observations

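The response was not spread evenly over the kinds of probe set. Of the 969 tested probe sets with a gene in the annotation, 391 (40.4%) were called, 168 higher and 223 lower, against 26.9% of those without a gene. Those with a gene also had the higher median well-watered S signal, 795 against 209, and the part of signal in the difference was not tested. Probe sets whose names end in a_at, for several transcripts of 1 gene, were called in 39.4% of cases, those in s_at in 37.0%, those in x_at in 33.5% and the rest in 24.0%. Their median well-watered S signals were 900, 538, 388 and 157 in turn. Probe sets named Ta, with a median of 419, were called in 32.2% and those named TaAffx, with a median of 117, in 20.2%. The part of signal in these differences was not tested either. Among groups of probe sets that share a cluster number in their names, 1584 had at least 2 called members, which all moved one way in 1552 (761 higher and 791 lower).

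The summed signal was less concentrated under drought. The 100 brightest probe sets of each array held 13.9%, 13.2% and 11.8% of its signal in well-watered S and 9.49%, 10.4% and 10.7% in S under drought. The groups did not overlap, and the smallest exact permutation p of 3 against 3 arrays is 0.1. In R the shares were 11.7%, 10.5% and 13.5% watered and 10.1%, 9.40% and 7.92% under drought.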
